A study of Mus musculus with 8 samples.

Results

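The SurePrint G3 Mouse GE 8x60K array carries 842 probes whose transcript name begins with NAP followed by digits, out of 55681 non-control probes (1.51%). The members were taken by that name alone, with no measured value used. They carry 795 different names, of which 44 belong to more than 1 probe (91 probes in all, at most 4 to a name), and each member has 1 spot on the array. The array files do not say what the prefix stands for, no member's name matched a RefSeq transcript, and the files give neither the probe sequences nor genome positions, so the members are given here by probe identifier and name.

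The arrays measured RNA from individual E8.5 mouse embryos, with 4 embryos sired by homozygous *Eed* hypo/hypo males (HOM father) and 4 sired by heterozygous *Eed* hypo/wt males (HET father). The hypomorphic allele was Eedl7Rn5-1989SB, every embryo was itself heterozygous (*Eed* hypo/wt), and the mothers were wild-type females of the same C57bl6/129 background, with no history of the mutation. The mutant colony also carried an *Oct4*GFP transgene. Each group held 2 female and 2 male embryos. The sires were brothers from fewer families than there were embryos, so 1 father or litter can stand behind several embryos, which the p-values treat as separate samples. The comparison addressed here is whether the father's genotype altered RNA levels in offspring of 1 genotype.

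EED is a core subunit of Polycomb Repressive Complex 2, which methylates histone H3 at lysine 27, a mark associated with repressed chromatin. Retrotransposed pseudogenes are copies of spliced messenger RNAs that were reverse transcribed and inserted elsewhere in the genome, usually without the promoter of the parent gene. Highly expressed housekeeping genes, such as those encoding ribosomal proteins, have left many such copies in mammalian genomes, and a probe to a recent copy can also bind the parent's transcript.

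Within a group, the signals of the arrays correlated across probes at 0.988 to 0.993, and no non-control spot was saturated. The *Eed* probe read 4.72 ± 0.06 with HOM fathers and 4.71 ± 0.05 with HET fathers (mean ± SD, n = 4 and 4), where the embryos were of the same genotype. All values are log2 of the processed signal minus the array's own 75th percentile, so that 0 is the 75th percentile of the array. The 4 arrays of each group lay on a slide of their own, so slide and father cannot be told apart in any difference given here. Probes for markers of the neural tube, heart, primitive blood, somites, endoderm and yolk sac were well above background on all 8 arrays, whereas that for *Tpbpa*, a marker of the spongiotrophoblast, was so on 0 arrays. The probe for *Prl8a2*, of the decidua, and the brighter of 2 for *Prl3d1*, of trophoblast giant cells, were so on all 8 arrays.

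The members were detected about as often as RefSeq messenger RNA probes, and those detected lay at higher signals. On average 71.6% of the members were well above background on an array, the scanner software's own detection flag, against 71.2% of probes with an NM_ name and 54.2% of all probes. The flag was set on all 8 arrays for 565 members (67.1%), on 1 to 7 arrays for 106 and on none for 171 (20.3%). For NM_ probes the corresponding shares were 66.3% on all 8 arrays and 20.5% on none. Embryos of HOM fathers showed 75.9, 72.7, 72.7 and 72.1% of the members above background in replicates 1 to 4, and embryos of HET fathers 72.4, 70.1, 68.2 and 68.9%. The ranges of the groups overlapped.

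A probe was tested when at least 4 arrays gave it the detection flag and a signal no lower than their 20th percentile, which kept 604 members (71.7%) and 29718 probes in all (53.4%). The tested members had a median mean signal of 3.98, with the 10th, 25th, 75th and 90th percentiles at -3.11, 0.40, 6.14 and 7.10. Tested NM_ probes had a median of 0.40, and all tested probes one of -0.56. Of the tested members 77.3% lay above the array's 75th percentile, against 54.5% of NM_ probes and 44.7% of all. A mean signal of 5 or more was reached by 248 of the 842 members (29.5%) and by 4.21% of NM_ probes. The spread within a group was small, with a median SD of 0.09 over the members, 0.11 over NM_ probes and 0.13 over all probes. At the same mean signal the members' SD was not always the lower. It was 0.16 against 0.12 for NM_ probes from -1 to 0, and 0.10 against 0.14 from -2 to -1. Brightness also depends on how well a probe's sequence binds, so these distributions describe probes and do not rank transcripts by abundance.

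The 5 brightest members were not called by father. A_55_P2001510 (NAP108184-1), the brightest of them, read 8.10, 7.97, 8.02 and 8.24 with HOM fathers and 8.41, 8.19, 8.38 and 8.37 with HET fathers. The groups overlapped and the difference was -0.26 ± 0.08 (SE, limma, adjusted p = 0.0513). A_55_P2036317 (NAP114425-1) read 7.79, 8.03, 7.98 and 8.09 against 8.41, 8.13, 8.32 and 8.14, with every HOM father array below every HET father array and a difference of -0.28 ± 0.09 (SE, limma, adjusted p = 0.0658). The others, A_55_P2147816 (NAP093810-001), A_55_P2031407 (NAP111752-1) and A_55_P2131577 (NAP103572-1), had mean signals of 8.17, 8.09 and 8.01 and differences of -0.17, -0.06 and -0.05, and their groups overlapped.

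A difference between the fathers was called where limma gave an adjusted p under 0.01 and at least a 2-fold change. By this rule 26 of the 604 tested members (4.3%) were higher in embryos of HOM fathers and 0 were lower, where over all 29718 tested probes 1.27% were called, 1.24% higher and 0.0269% lower. At an adjusted p under 0.05 with no limit on size, 99 members were higher (16.4%, with 12.3% of all tested probes) and 94 lower (15.6%, with 8.69% of all). The 94 became 47 or 48 on leaving out HOM father replicate 1 or 3 or HET father replicate 3 or 4, and 60 without HOM father replicate 4. The lowest HOM father value exceeded the highest HET father value for 117 members (19.4%, with 14.1% of all), and the reverse held for 135 (22.4%, with 13% of all). The median difference over the tested members was -0.04, against -0.05 over NM_ probes and -0.02 over all. The 26 were 3.09% of all 842 members, where 0.675% of all probes on the array were called. Of the tested members, 6 were well above background on no HET father array and were tested through the HOM father arrays alone. Of these, 5 are among the 26. Another 4 of the 26 were so on some HET father arrays but on fewer than 4, so they also needed the HOM father arrays to be tested. A further 6 members differed by at least 2-fold upward without being called, and 1 downward. That member, A_55_P2171788 (NAP072206-1), read 2.72, 3.19, 2.86 and 2.94 against 3.63, 3.77, 4.57 and 4.75, and it was singled out after its values were seen. Its groups did not overlap, and the difference was -1.25 ± 0.26 (SE, limma, adjusted p = 0.0147). It was called lower after scaling to the array median, after normexp and with an intensity trend in the variance.

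The called members were almost all dim. Among the 137 tested members with a mean signal below the array's 75th percentile, 25 were called (18.2%), against 0.889% of NM_ probes and 2.11% of all probes in that range. The median difference of the 137 was 0.36, with 59 higher (43.1%) and 1 lower (0.73%) at an adjusted p under 0.05. NM_ probes in that range had a median of -0.002, with 10.1% higher and 4.54% lower. All probes there had one of 0.05, with 17.1% higher and 3.58% lower. Among the 467 members above the 75th percentile 1 was called (0.214%, against 0.0489% of NM_ probes and 0.219% of all). The median difference of these brighter members was -0.08, with 40 higher (8.57%) and 93 lower (19.9%) at an adjusted p under 0.05. NM_ probes in that range also had a median of -0.08, with 3.71% higher and 15.2% lower. All probes there had one of -0.07, with 6.34% higher and 15% lower. The 93 became 46 or 47 on leaving out HOM father replicate 1 or 3 or HET father replicate 3 or 4, and 59 without HOM father replicate 4. The 40 became 23 to 26 without HOM father replicate 3 or 4 or HET father replicate 2 or 3. Quantile normalisation brought the median of the brighter members to 0.00, with 69 higher and 62 lower. Scaling each array to its median, which moved the median of all probes to -0.21, gave them -0.27 with 8 higher and 275 lower. The dim members kept a positive median under both, at 0.24 and 0.17, with 50 and 49 higher and 5 and 11 lower. Its size depended on the filter. Without the filter the median was 0.07 over 375 dim members, with 54 higher and 1 lower. Over the 99 dim members well above background on all 8 arrays it was 0.18, with 39 higher and 1 lower, and 16 were called. For these alternatives the shares over all dim or bright probes are not given here.

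Compared with NM_ probes of the same mean signal, in bands 1 log2 unit wide, the share called was higher for the members in each of the 6 bands from -5 to 1. It was 17.6% against 1.49% from -5 to -4, 13% against 1.16% from -4 to -3 and 14.3% against 0.626% from -3 to -2. It was 15.4% against 0.999% from -2 to -1, 28.6% against 0.195% from -1 to 0 and 2.78% against 0.137% from 0 to 1. These bands held 21 to 36 tested members each, so that 1 called member moves a share by 2.78 percentage points or more. In the lowest of them all 6 called members needed the HOM father arrays to pass the filter, which asks for 4 arrays. A_55_P2034311, A_66_P130560 and A_55_P2165401 were well above background on 0 HET father arrays. A_55_P2103811, A_66_P120425 and A_55_P2127179 were so on 1. From -4 to -3 A_55_P1962568, so on 3 HET father arrays, needed the HOM father arrays too. With bands set by the HET father arrays alone, the shares were 7.41% against 1.64% from -5 to -4, 17.4% against 0.705% from -4 to -3 and 23.3% against 1.05% from -3 to -2. They were 17.4% against 0.43% from -2 to -1, 5% against 0.248% from -1 to 0 and 0% for both from 0 to 1. In the 7 bands from 1 to 8 no member was called. From 4 to 5 the median difference was -0.03 for the members and -0.09 for NM_ probes. It was -0.12 against -0.11 both from 5 to 6 and from 6 to 7, and -0.14 against -0.10 from 7 to 8.

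A raised share of calls was not particular to the NAP names. Probes with no transcript name had 4.26% called and those named TC 5%, beside 2.63% for probes to lincRNA intervals, 2.2% for XM_ or XR_ names and 0.431% for NM_ names. Within the members, the 625 probes whose name has a suffix of 1 digit had 4.04% of those tested called and the 217 with a suffix of 3 digits 5.06%. The spots of the called members were spread over the array, from row 5 to row 367 and from column 8 to column 161.

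The 26 called members carried 25 names and had differences of 1.22 to 3.29 with a median of 2.15. All 26 were well above background on each of the 4 HOM father arrays, and in none did the groups overlap. On the HET father arrays 17 were well above background on all 4, 4 on some and 5 on none. For those 5 the HET father level is only a bound, taken from the lowest signal well above background on each array. A spot can read above that signal without being flagged, so the bound is approximate. With it in place of the fitted value the median of the 26 was 1.82. Correcting the background with normexp and an added offset of 50, in place of the scanner's own correction, lowered the median difference of the 26 to 1.31. All 26 were still higher and 20 of them still called. An added offset by itself shrinks the log2 differences of dim probes, and its part in the fall was not tested. The 17 measured in every embryo rose between 2.33-fold and 6.76-fold. Among the 26, 12 probes are annotated in the study's supplementary material as retrotransposed copies, of 11 parent genes. That annotation was given for a list chosen on these same samples, so it is no independent evidence, and which of the other members are such copies is not known here.

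Copies of ribosomal protein genes made up 6 of the 12 annotated probes, under 5 names, with differences of 2.07 to 2.76. The probe annotated as a copy of *Rpl31* (written retro-Rp131 and read here as Rpl31, a protein of the large ribosomal subunit), A_55_P2124319 (NAP028285-1), read 0.11, -0.14, -0.36 and -0.12 with HOM fathers and -2.49, -3.06, -2.91 and -3.09 with HET fathers. Every embryo of a HOM father lay far above every embryo of a HET father, by 6.76-fold on average and 2.76 ± 0.15 (SE, limma, adjusted p = 7.86e-05) on the log2 scale. A_55_P1971619 (NAP114307-1), annotated as a copy of *Rpl9*, another large subunit gene, read -0.17, -0.19, -0.23 and -0.07 against -2.23, -2.71, -2.62 and -2.51. Both groups were tight, and the difference was 2.35 ± 0.10 (SE, limma, adjusted p = 3.32e-05), a 5.12-fold rise.

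The copy of *Rpl23a*, also of the large subunit, was represented by 2 probes that share the name NAP115343-1, and both were called. A_52_P150114 read 0.31, -0.08, 0.12 and 0.26 against -1.61, -2.41, -2.11 and -2.11, a difference of 2.21 ± 0.17 (SE, limma, adjusted p = 0.000254). A_55_P2185667 read -0.42, -0.35, -0.54 and -0.49 against -2.57, -2.52, -2.66 and -2.65, a difference of 2.15 ± 0.06 (SE, limma, adjusted p = 2.06e-05). The size of the rise was thus 4.63-fold by one probe and 4.44-fold by the other. The remaining copies of this kind were of *Rps2*, of the small subunit, and *Rpl7a*, of the large subunit. A_55_P2176260 (NAP094054-001), the *Rps2* copy, was 0.47 ± 0.15 against -1.68 ± 0.21 (mean ± SD, n = 4 and 4) and rose by 4.43-fold. A_55_P1992884 (NAP114441-1), the *Rpl7a* copy, was 0.04 ± 0.09 against -2.03 ± 0.20 (mean ± SD, n = 4 and 4) and rose by 4.19-fold. Both are described because they carry an annotation, a choice made after their values were seen.

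The other annotated copies came from genes of varied function. A_55_P1961165 (NAP015379-001), a copy of *Sumo2*, which encodes a small ubiquitin-like modifier, read -1.23, -1.31, -1.39 and -1.48 against -3.42, -3.70, -3.81 and -3.72. It rose by 4.96-fold, 2.31 ± 0.10 (SE, limma, adjusted p = 3.32e-05). A_55_P1984566 (NAP115085-1), annotated as a copy of the splicing factor gene *Tra2b*, read -4.74, -4.44, -4.63 and -4.65 against -7.78, -7.22, -6.92 and -6.90. The HET father values were not above background on any array, so the rise is given by the bound, at 1.45-fold (limma, adjusted p = 0.000227 for the fitted difference). The same held for A_55_P2158156 (NAP063342-1), a copy of the glycolytic gene *Gapdh*, which read -3.66, -4.10, -3.78 and -4.08 against -5.86, -6.74, -6.50 and -6.21. Its rise by the bound was 2.36-fold (limma, adjusted p = 0.000317 for the fitted difference). Both p-values use undetected HET father values and do not test the bounds. The bound for the *Tra2b* copy lies under the 2-fold limit that its fitted value passed, and after normexp both copies fell below that limit, with differences of 0.89 and 0.73, and were not called.

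The 3 remaining annotated probes were measured in every embryo. A_55_P1989947 (NAP020594-001), a copy of *Btf3*, whose product binds nascent polypeptides as part of a complex, was -1.98 ± 0.13 against -3.79 ± 0.16 (mean ± SD, n = 4 and 4) and rose by 3.51-fold. A_55_P2143446 (NAP029911-1), read here as a copy of *C1galt1c1*, which encodes a chaperone for a glycosyltransferase, was -1.16 ± 0.08 against -2.86 ± 0.18 (mean ± SD, n = 4 and 4) and rose by 3.25-fold. A_55_P2006366 (NAP106421-1), a copy of the poly(A)-binding protein gene *Pabpc4*, was -0.73 ± 0.14 against -2.14 ± 0.11 (mean ± SD, n = 4 and 4) and rose by 2.66-fold.

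For the 11 parent genes 31 NM_ probes were tested. By limma 0 of them passed both thresholds, near the 0.431% of all tested NM_ probes that did, and their differences ran from -0.35 to 0.34 with a median of -0.09. At an adjusted p under 0.05 with no limit on size, 1 was higher, that for *Tra2b* at 0.34 (limma, adjusted p = 0.00485). By the same rule 8 were lower. Over all tested probes 12.3% were higher and 8.69% lower. That is not a matched background, since most of the parent probes had mean signals of 5 to 8. Of tested NM_ probes from 5 to 6, 123 of 596 were lower and 14 higher. From 6 to 7, 70 of 315 were lower and 3 higher, and from 7 to 8, 29 of 176 and 0. The 4 *Rpl31* probes differed by -0.23 to -0.08 and the 5 *Sumo2* probes by -0.05 to 0.11. The sequences of the probes are not given, so how far a copy's probe also binds its parent's transcript was not tested.

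For 3 unannotated called members no HET father array was above background, and only a bound on their rise can be given. A_55_P2034311 (NAP111484-1) read -3.07, -3.10, -3.08 and -3.54 with HOM fathers and -5.90, -6.43, -6.84 and -6.81 with HET fathers. The groups did not overlap, and the rise by the bound was 3.85-fold (limma, adjusted p = 0.000159). A_66_P130560 (NAP113735-1) read -3.47, -3.50, -3.37 and -3.79 against -5.77, -6.29, -6.37 and -6.87, a rise of 3.06-fold by the bound (limma, adjusted p = 0.000265). A_55_P2165401 (NAP023752-001) was the most variable of the called members. It read -4.53, -3.22, -3.19 and -3.64 against -5.81, -6.12, -6.81 and -5.05, a rise of 2.79-fold by the bound (limma, adjusted p = 0.00856). The call was lost on leaving out HOM father replicate 2, 3 or 4 or HET father replicate 1, 2 or 3. The adjusted p-values were then 0.0193 to 0.0269 by limma. The adjusted p-values of these 3 probes belong to fitted differences that use undetected HET father values, and do not test the bounds. These bounds rest on the scanner's own background correction. After normexp the differences of the 3 probes were 1.26, 1.01 and 0.92, and the last was no longer called.

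In a further pair, 1 HET father array each was above background. A_55_P2103811 (NAP059416-1) read -2.54, -3.07, -3.21 and -3.08 against -5.15, -5.59, -6.74 and -6.22, a fitted difference of 2.95 ± 0.34 (SE, limma, adjusted p = 0.00118). A_66_P120425 (NAP111304-1) read -3.40, -3.42, -3.18 and -2.96 against -4.93, -6.29, -5.10 and -6.35, a fitted difference of 2.43 ± 0.35 (SE, limma, adjusted p = 0.00296). With most HET father values below detection these sizes are uncertain, and after normexp they were 1.41 and 1.05. Its HET father values fell apart by sex, with females at -4.93 and -5.10 and males at -6.29 and -6.35, yet the interaction of father and sex did not pass the test (limma, adjusted p = 0.0622). The call for this probe was lost without HOM father replicate 3 (limma, adjusted p = 0.0106) and without HOM father replicate 4 (adjusted p = 0.0120).

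Called members without a copy annotation included some with little spread. A_55_P2135031 (NAP068632-1) was the sole called member above the 75th percentile, and was 1.81 ± 0.05 against -0.02 ± 0.14 (mean ± SD, n = 4 and 4), a 3.56-fold rise. A_55_P2022114 (NAP094721-001) was 0.66 ± 0.10 against -1.11 ± 0.05 (mean ± SD, n = 4 and 4), a 3.41-fold rise. Besides A_55_P2168321, which shares its name with another probe and is described with it, the 6 other called members, A_55_P1962568, A_55_P2132099, A_52_P398211, A_55_P2056221, A_55_P2127179 and A_55_P2053466, differed by 1.22 to 2.20. These 8 probes were named after their values were seen.

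Probes that share a NAP name did not always move together. Over the 31 names with at least 2 tested probes, the probes of a name differed in father effect by a median of 0.10 and by at most 2.48. A called probe occurred under 3 names, and under 1 of them, NAP115343-1 above, every tested probe was called. Under NAP015379-001 the *Sumo2* copy's called probe stood beside A_55_P1961168, which read 3.92, 4.03, 4.00 and 3.99 against 4.19, 4.08, 4.19 and 4.19 and changed by -0.18 ± 0.05 (SE, limma, adjusted p = 0.0397). Under NAP114507-1, A_55_P2168321 read -0.23, -0.19, -0.33 and 0.14 against -1.35, -1.49, -1.36 and -1.41, a difference of 1.25 ± 0.10 (SE, limma, adjusted p = 0.000322). Its partner A_55_P1962380 read 5.49, 5.64, 5.50 and 5.53 against 5.73, 5.61, 5.77 and 5.70, a difference of -0.17 ± 0.06 (SE, limma, adjusted p = 0.0777). In both names the called probe was higher in every embryo of a HOM father, and the uncalled probe was on average lower.

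Sex of the embryo was not a source of calls among the members. By limma with the same thresholds 0 members were called between females and males, where 0.0606% of all tested probes were, and 18 (2.98%) had an unadjusted p under 0.05, against 5.22% of all. A single member passed an adjusted p under 0.05, A_55_P2045818 (NAP058263-1), which was named after its values were seen. It read 5.88, 5.998, 5.95 and 6.16 in the females and 5.19, 5.32, 5.34 and 5.43 in the males, a difference of 0.68 (95% interval 0.51 to 0.84, limma, adjusted p = 0.0255), and the sexes did not overlap. For the interaction of father and sex 0 members were called, as were 0% of all tested probes, and 11 members (1.82%) had an unadjusted p under 0.05, against 4.52% of all.

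Among the markers of other tissues, those of maternal decidua and trophoblast giant cells varied most between arrays. *Prl8a2*, made in the decidua, read 0.29, 4.14, 4.45 and 1.30 with HOM fathers and 1.85, 1.88, -1.42 and -3.99 with HET fathers. *Prl3d1*, of trophoblast giant cells, read -1.05, 1.97, 1.12 and 0.39 against 0.44, 0.03, -2.39 and -3.16. Both were higher on average with HOM fathers, by 2.97 (limma, adjusted p = 0.215) and 1.88 (adjusted p = 0.208), and their groups overlapped. Of the yolk sac genes, *Apoa1* differed by -0.41 (limma, adjusted p = 0.0139), *Afp* by -0.12 (adjusted p = 0.525) and *Ttr* by -0.16 (adjusted p = 0.211). The part of such tissue in the called differences was not tested, and fewer cells of a type cannot be told apart from less RNA per cell.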

How the data were processed

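RNA of 8 whole E8.5 embryos (4 per father group, 0.2 µg each) was hybridised to 1-colour Agilent arrays, and the authors extracted features with Agilent Feature Extraction 11.0.1.1. The deposited intensity values are its background-subtracted, detrended processed signals, with detection, saturation and outlier flags per spot as other columns (per the file headers). The deposited value table held the same intensities to within 0.497%, and served as an alternative.

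From these values, outlier-flagged spots and controls were left out, spots of one probe were averaged, and log2 intensity was shifted by each array's 75th percentile. Father, sex and their interaction were fitted across all 29718 tested probes with limma 3.58.1 (R 4.3.3; lmFit, eBayes, Benjamini-Hochberg), with 4 embryos per group. The script was tested on simulated data. Array number limits the precision, and the labels name separate embryos. A bound was set from the lowest signal well above background on each array.

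Members, gene lists and thresholds were chosen with earlier results of these data known. Probes were named by rule: up to 10 called by father and 5 by sex or interaction in each direction, the 5 brightest members, and every name with over 1 probe of which any was called. Alternatives were other scalings, background correction, filters, variance model, blocks and leaving out each embryo. No value from the authors' own comparison was used, but the copy annotation came from the list of probes which that comparison yielded. A parent's name given with a digit 1 for the letter l was read as the ribosomal gene. Probe positions, sequences and the meaning of the NAP prefix are not given in the sources used here.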

Additional observations from a re-analysis of the deposited data

Results flagged for a closer look

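A sample was singled out where it stood apart from the other 3 of its group beyond Dixon's 95% limit. Of 66 groups of values examined 7 did so, where chance gives 1 in 20, or about 3.3. Among the called members, A_55_P2034311 (NAP111484-1) read -3.54 in HOM father replicate 4 against -3.10 to -3.07 in the other HOM father embryos. A_55_P2056221 (NAP095481-001) read -4.03 in HET father replicate 2 against -3.63 to -3.59, and A_55_P2127179 (NAP023935-001) read -4.60 in HET father replicate 1 against -5.28 to -5.22. Each of these still lay on its own group's side of the other group. The bright member A_55_P2031407 (NAP111752-1) stood apart in both groups, at 8.18 in HOM father replicate 4 against 8.01 to 8.03 and at 8.00 in HET father replicate 2 against 8.15 to 8.16. Over the members as a whole, HOM father replicate 1 had 75.9% well above background against 72.1 to 72.7%, and the median signal of HET father replicate 2 was 3.96 where the others lay at 4.04.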

How the results depend on the processing

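The count of 26 members called by father ran from 21 to 29 under the alternatives that kept the thresholds and the filter or removed the filter, and was 25 to 29 on leaving out each embryo in turn. Members called lower were among these counts under 3 alternatives, 2 of the 28 after scaling to the array median, 1 of the 21 after normexp and 1 of the 27 with an intensity trend. The count of members was 17 when probes had to be well above background on all 8 arrays, which by construction removes the other 9. At an adjusted p under 0.05 with no fold limit it was 193, where 21% of all tested probes passed. Over all tested probes 1.27% were called in the main fit. With the thresholds kept, that share ran from 0.488% (normexp) to 1.41% (without HET father replicate 1), and was 0.862% for probes above background on all 8 arrays. Of the 26, 15 were called under each of the 18 alternatives fitted and 24 on leaving out any 1 embryo, the exceptions being A_55_P2165401 and A_66_P120425. Normexp on the median signals with an offset of 50, chosen after seeing the data, kept 20 of the 26. The planned normexp on mean signals was not run, since the array files used here give median signals. The median difference over the members was -0.04, but 0.025 after quantile normalisation and -0.23 after scaling to the array median (cause not tested beyond the shift of all probes given above), and -0.05 to -0.03 on leaving out each embryo. Quantile normalisation turned the small differences of A_55_P2031407 to 0.044 and of A_55_P2131577 to 0.061. With bands set by the HET father arrays alone, the members' share of calls was above that of NM_ probes in 5 of 13 bands, against 6 of 13 before. Sex and interaction gave 0 calls by limma under each alternative. With replicate number as a block 23 of the 26 stayed called, without A_55_P2127179, A_55_P2165401 and A_66_P120425, where 0.781% of all tested probes were called. At an adjusted p under 0.05 the members then came to 62 higher and 25 lower, against 99 and 94. Without the filter they came to 69 and 21. The counts over all probes at that limit under these 2 settings are not given here. Same-numbered embryos deviated together at correlations of 0.19, -0.09, -0.13 and 0.15, so the numbers were not taken as pairs, and not every HOM father embryo correlated best with its own number. Signal over background limits the dim members, for which 5 of the 26 levels are bounds.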
